A study of Mus musculus with 91 samples.

Results

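CD11b+ GMP-P cells are progenitors from the granulocyte-monocyte progenitor gate of mouse bone marrow that also carried CD11b on their surface, and 45 of them were profiled by single-cell RNA sequencing. The sides were chosen by the measured transcript level of Mki67 in these same cells, into 31 Mki67-positive cells, at 10 TPM or more, and 14 Mki67-negative cells below it. Mki67-positive cells thus made up 68.9% of the 45 (exact Clopper-Pearson 95% interval 53.4% to 81.8%, counting error only). The whole series held 91 cells, and the other 46 were GMP cells taken without the CD11b selection.

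All 91 cells came from C57BL/6 mice of one genotype, with Gfi1-R412X over a missing Gfi1 allele and a single Irf8 allele (Gfi1-R412X/- Irf8+/-), so both sides of the comparison share every allele. Marrow of the hind limbs was sorted as Lin-, CD117+, Sca-1-, CD34+ and CD16/32high, and single cells were captured on a Fluidigm C1 chip. No animal is named in the labels, so the 45 cells are 1 sample, spreads are SDs over cells, and no p-value is given for any difference. No age of the mice and no other genotype entered the comparison.

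Mki67 encodes Ki-67, a protein that coats mitotic chromosomes. Its transcript is made from S phase to mitosis and falls after division and in quiescence, so a cell without it can be early in the cycle, resting, or a cell in which a low transcript was missed. Neutrophil precursors divide while they fill their primary granules with proteases such as elastase (Elane), continue to divide in the myelocyte stage as they begin secondary granule genes such as lactoferrin (Ltf), and then stop dividing as they mature. Many genes of G2 and mitosis carry in their promoters a cell cycle homology region (CHR) and CCAAT boxes, which are bound by the DREAM and MuvB complexes and by NF-Y.

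The promoters of 4 genes are shown. Of these only Mki67 set the sides, and Top2a, Ube2c and Birc5 are G2 and M phase genes that differed between them. Sequences are from RefSeq on build GRCm38.p6, 5′ to 3′ on the gene's own strand, and hold bases before the start of transcription. The expression table itself was made on mm9, and no coordinate of that build was used. Capitals mark the CHR letters TTTGAA or, on the other strand, TTCAAA, and the CCAAT box letters CCAAT or, on the other strand, ATTGG. The windows are chr7:135716451-135716629 on the minus strand for Mki67, chr11:99024200-99024439 on the minus strand for Top2a, chr2:164769679-164769928 on the plus strand for Ube2c and chr11:117848987-117849236 on the plus strand for Birc5.
Mki67: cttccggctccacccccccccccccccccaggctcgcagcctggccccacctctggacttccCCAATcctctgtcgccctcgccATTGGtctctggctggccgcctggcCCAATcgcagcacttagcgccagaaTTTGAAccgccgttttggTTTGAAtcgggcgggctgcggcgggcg
Top2a: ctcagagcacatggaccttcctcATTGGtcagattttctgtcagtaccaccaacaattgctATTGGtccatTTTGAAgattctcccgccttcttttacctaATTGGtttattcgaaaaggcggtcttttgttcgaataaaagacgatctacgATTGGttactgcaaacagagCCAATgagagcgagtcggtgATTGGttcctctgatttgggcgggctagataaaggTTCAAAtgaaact
Ube2c: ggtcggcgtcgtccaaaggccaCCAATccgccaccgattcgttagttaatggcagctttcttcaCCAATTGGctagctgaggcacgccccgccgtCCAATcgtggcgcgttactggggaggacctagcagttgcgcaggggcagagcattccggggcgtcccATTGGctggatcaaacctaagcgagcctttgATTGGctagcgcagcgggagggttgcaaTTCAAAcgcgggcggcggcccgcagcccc
Birc5: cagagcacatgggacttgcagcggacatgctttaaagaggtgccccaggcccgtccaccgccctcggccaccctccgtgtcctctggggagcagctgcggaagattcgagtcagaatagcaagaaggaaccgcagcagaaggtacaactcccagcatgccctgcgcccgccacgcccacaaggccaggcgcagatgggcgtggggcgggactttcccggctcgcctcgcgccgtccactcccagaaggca
Mki67 and Top2a each held 2 CHR matches, Ube2c held 1, and the Birc5 window held neither set of letters. The windows hold 179 bases for Mki67, 240 for Top2a and 250 each for Ube2c and Birc5. The promoters of 300 bases counted below also include 50 bases after the start. Numbers of matches are therefore not comparable among these windows or with the shares below. In Ube2c a CCAAT and an ATTGG overlap as CCAATTGG.

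Over the G2 and M phase list, 45 of the 54 genes had a promoter in the RefSeq table. Of their 49 promoters of 300 bases, 34 (69.4%) held a CHR match, against 17.9% of all 32851 promoters of the same length. A CCAAT match was present in 39 (79.6%), against 37.4% of all promoters, and 29 (59.2%) held both, against 6.95%. Among the 32 promoters of S phase genes 9.38% held a CHR match and 56.2% a CCAAT match, and 6 (18.8%) held the E2F letters TTTCGCGC or GCGCGAAA, against 0.323% of all promoters. These letters describe the sequences and were not measured as binding.

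Values are log2(TPM + 1), written here as log2 levels, and differences are the mean of Mki67-positive cells minus the mean of Mki67-negative cells on that scale. Mki67 itself, which chose the sides, had a level of 6.35 ± 1.33 in positive cells, with a lowest value of 3.73, a median of 6.31 and a highest of 8.45. In negative cells it was 0.79 ± 1.06, with a median of 0.08 and a highest value of 2.76. The positive cells nearest the threshold of 10 TPM held 12.29, 13.17 and 13.91 TPM, and the nearest negative cells held 5.79, 4.72 and 4.48 TPM. No cell thus lay between 5.79 and 12.29 TPM, and the threshold of 10 TPM fell in this gap. Whether the gap separates distinct groups of cells was not tested.

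More genes were detected in positive cells, at 4303 ± 932 (2461 to 6161), than in negative cells, at 3688 ± 886 (2435 to 4985). The counted set was the 7228 genes detected in 20% or more of the 45 cells (Mki67 left out), and its median difference was 0.37. Of these genes 280 were higher in positive cells by 2 or more, which is 3.87%, and 24 were lower by 2 or more, which is 0.332%. Counts of genes at a difference of 2 over all 45 cells are to be read against these shares, and counts within a field against the shares of that field. A restriction to cells in a shared range of detected genes is given below, but the part of that number in any difference was not tested. Transcripts of the sorting markers were uneven. Fcgr3, which encodes CD16, reached 10 TPM in 26 positive and 13 negative cells, Cd34 in 11 and 3, Itgam, which encodes CD11b, in 15 and 9, and Kit, which encodes CD117, in 1 and 2. Ly6a, whose product is Sca-1, reached 10 TPM in 29 positive and 12 negative cells although the gate was Sca-1-. One negative cell, number 76, stood apart. It held Prg2, the major basic protein of eosinophil granules, at 16.97, and its summed basophil, mast cell and eosinophil genes came to 133352 TPM, against at most 953 TPM in any positive cell. Without it the median difference of the G2 and M phase list was 2.11, beside 2.14 with it, and that of Ltf was -1.57, beside -1.14.

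Genes of G2 and mitosis were higher as a list in Mki67-positive cells. Of 54 listed genes 52 entered the count. Of these, 29 were higher by 2 or more and none was lower by 2 or more, beside 3.87% and 0.332% of all counted genes. Their median difference was 2.14. Since Mki67 belongs to the same expression programme, this describes what else the chosen cells carried. The other 2 genes, Nek2 and Psrc1, were above 0 in too few cells.

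Top2a encodes the topoisomerase that untangles sister chromatids, and its level ranged from 0 to 9.17 in positive cells, with a median of 7.66. In negative cells it ranged from 0 to 7.84 with a median of 0.27, and 26 of 31 positive against 5 of 14 negative cells reached 10 TPM. The ranges overlapped, while the means were 6.39 ± 2.79 and 2.5 ± 3.16, a difference of 3.89. Ube2c, the ubiquitin-conjugating enzyme of the anaphase-promoting complex, had a median of 7.44 in positive cells (0 to 11.25) and 0.34 in negative cells (0 to 7.78). It reached 10 TPM in 22 of 31 and 3 of 14 cells, with a difference of 3.95. Both genes together reached 10 TPM in 21 of 31 positive and 2 of 14 negative cells, and both lay below it in 4 of 31 and 8 of 14. Mki67 and this pair of markers therefore gave the same answer in most cells and differed in several on each side.

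Birc5 (survivin), a subunit of the chromosomal passenger complex, differed by 5.30. Its median was 7.75 in positive cells (0.61 to 10.73) and 0.60 in negative cells (0 to 7.31). Aurkb, the kinase of the same complex, reached 10 TPM in 22 of 31 positive and 3 of 14 negative cells and differed by 4.39. Kif11 encodes the motor that separates the spindle poles and reached 10 TPM in no negative cell. Its median was 4.93 in positive cells (0 to 8.48), 19 of which reached 10 TPM, whereas no negative cell exceeded 0.82. The cyclins followed the same direction, with Ccnb1 higher by 3.69 and at 10 TPM in 15 of 31 against 1 of 14 cells, and Ccna2 higher by 3.39. Differences of the spindle gene Nusap1, the mitotic entry gene Cdca3 and the mitotic kinase Plk1 were 3.73, 4.19 and 2.54.

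**Figure D1:**
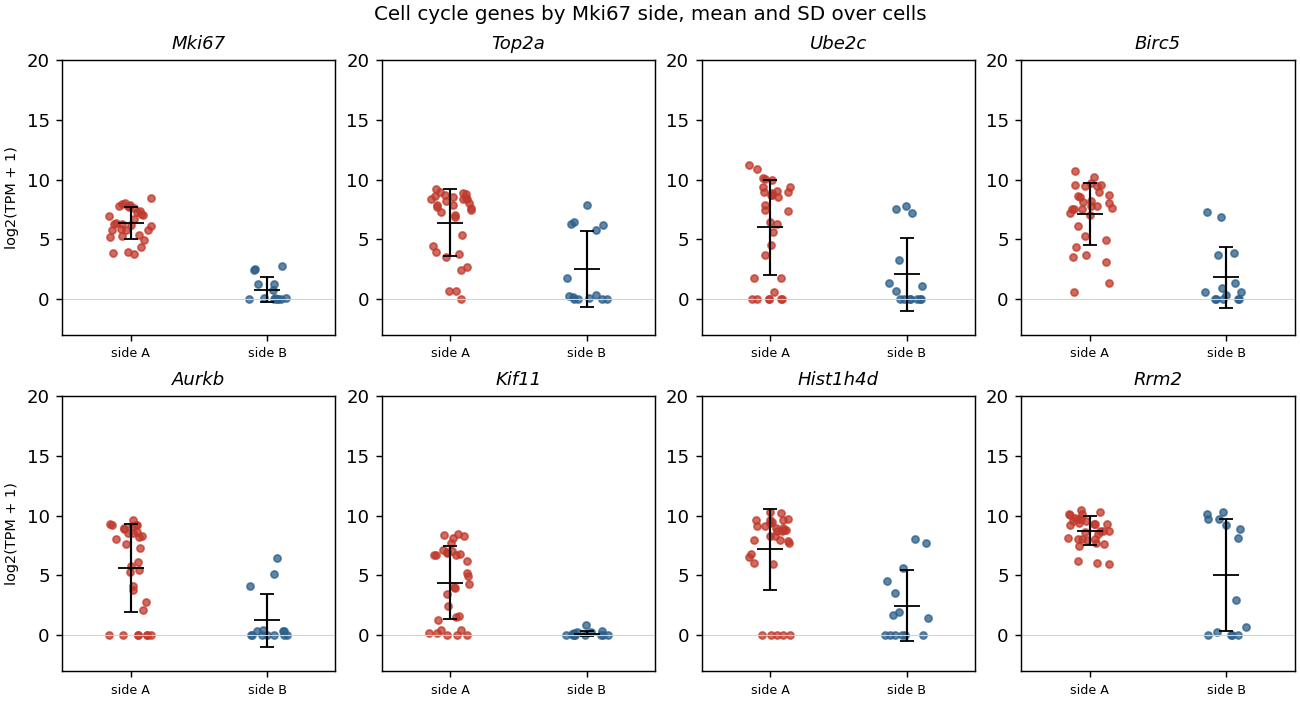
Log2(TPM + 1) of 8 cell cycle genes in each CD11b+ GMP-P cell, with Mki67-positive cells as side A (31 points) and Mki67-negative cells as side B (14 points). Horizontal marks are means and bars are SDs over cells. Kif11 stays at or under 0.82 in every side B cell, while Rrm2 is spread from 0 to 10.30 in side B.

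Counted cell by cell, positive cells had a median of 28 of the 54 G2 and M phase genes at 10 TPM or more (6 to 45), and negative cells a median of 12.5 (0 to 29). The ranges overlapped. Positive cell 70 had 6 such genes and a Top2a level of 0, whereas negative cell 72 had 29 of them. Some cells of each side thus had counts typical of the other.

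Histones and tubulin-related genes, whose products package new DNA and build the spindle, had 16 of 17 listed genes in the count. Of these, 10 were higher by 2 or more, beside 3.87% of all counted genes, and the median difference was 2.59. Stmn1, a regulator of microtubules, lay between 9.08 and 12.01 in all 31 positive cells and between 0.56 and 11.95 in negative cells. Tubb5 lay between 9.89 and 12.65 in positive cells and between 1.11 and 11.82 in negative cells. The replication histone Hist1h4d had a median of 8.68 in positive and 1.56 in negative cells. For Stmn1 and Tubb5 the positive cells were all high, and the negative cells were spread from nearly absent through intermediate levels, such as Stmn1 at 5.06, 5.55 and 5.91, to levels within the positive range. Histone genes are near-identical copies, so reads may have been divided among them, and their single values are less certain.

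S phase genes were closer to the background. All 35 entered the count, and 5 were higher by 2 or more and 1 lower, beside 3.87% and 0.332% of all counted genes. The median difference was 0.36, beside 0.37 over all counted genes. The 5 higher genes were Rrm2, Slbp, Usp1, Tipin and Rfc4. Rrm2, a subunit of the enzyme that makes deoxynucleotides, lay between 5.92 and 10.44 in all 31 positive cells. In negative cells it ranged from 0 to 10.30, with 7 of 14 at 10 TPM or more, and the difference was 3.73. Pcna, the sliding clamp of DNA polymerases, differed by 1.57, at 10 TPM in 26 of 31 and 9 of 14 cells. Cdc6, which loads the replicative helicase in G1, went the other way. It reached 10 TPM in 4 of 31 positive and 6 of 14 negative cells, and its mean was 1.02 ± 1.97 against 3.38 ± 3.59, a difference of -2.35.

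Among 16 counted regulators of G1 and S entry, 2 were higher by 2 or more, beside 3.87% of all counted genes, and none was lower. Their list had a median of 0.40. The 2 higher genes were the D-type cyclin Ccnd3, at 2.43, and the repressor E2f8, at 2.27. Of 9 counted inhibitors of cyclin-dependent kinases and exit genes, only Cdkn2d passed 2, beside the same 3.87%. Cdkn2d encodes the inhibitor p19-INK4d, and it was higher in the Mki67-positive cells, at 6.27 ± 3.40 against 3.11 ± 3.38.

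Granule genes were arranged differently from cycle genes. Elane, the protease of primary granules, had a median of 13.46 in positive cells (2.77 to 15.58) and 13.01 in negative cells (3.31 to 15.31), with a difference of 0.83. Ltf, the iron-binding protein of secondary granules, had a median of 1.74 in positive cells (0 to 13.22) and 5.56 in negative cells (0.28 to 14.27), with a difference of -1.14. For both genes each side held high and low cells, and the SDs, between 4.52 and 6.34, exceeded the differences. The median over 13 counted primary granule genes was 0.72, with 1 gene past 2, and over 17 counted secondary granule genes it was -0.05, also with 1. Both of these genes were higher in positive cells, beside 3.87% of all counted genes higher by 2 or more. Among the 25 cells whose number of detected genes lay between the 10th percentile of positive cells and the 90th of negative cells (3228 to 4703.6), the primary granule median was -1.62 and the Elane difference -2.25, so these directions turned. Over 17 counted genes of tertiary granules and late neutrophils the median was 0.58, with none past 2 in either direction. Azu1, on the primary granule list, had no row in the table.

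The single members past 2 were Ms4a3 and Fcnb. Ms4a3, a membrane protein typical of granulocyte-monocyte progenitors, had a mean of 10.05 ± 2.17 in positive and 7.70 ± 4.51 in negative cells, a difference of 2.35. It reached 10 TPM in 30 of 31 and 10 of 14 cells. Fcnb (ficolin B), a lectin stored in granules, had a mean of 9.85 ± 3.04 against 7.03 ± 5.16, a difference of 2.83. Mpo (myeloperoxidase), Prtn3 (proteinase 3) and Ctsg (cathepsin G) differed by 0.65, 1.23 and 0.72. The secondary granule genes Camp, Ngp and Lcn2 differed by -0.77, -0.78 and 0.77. Except for Prtn3 these differences lay under 1 in size, beside SDs over cells of 1.96 or more.

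**Figure D2:**
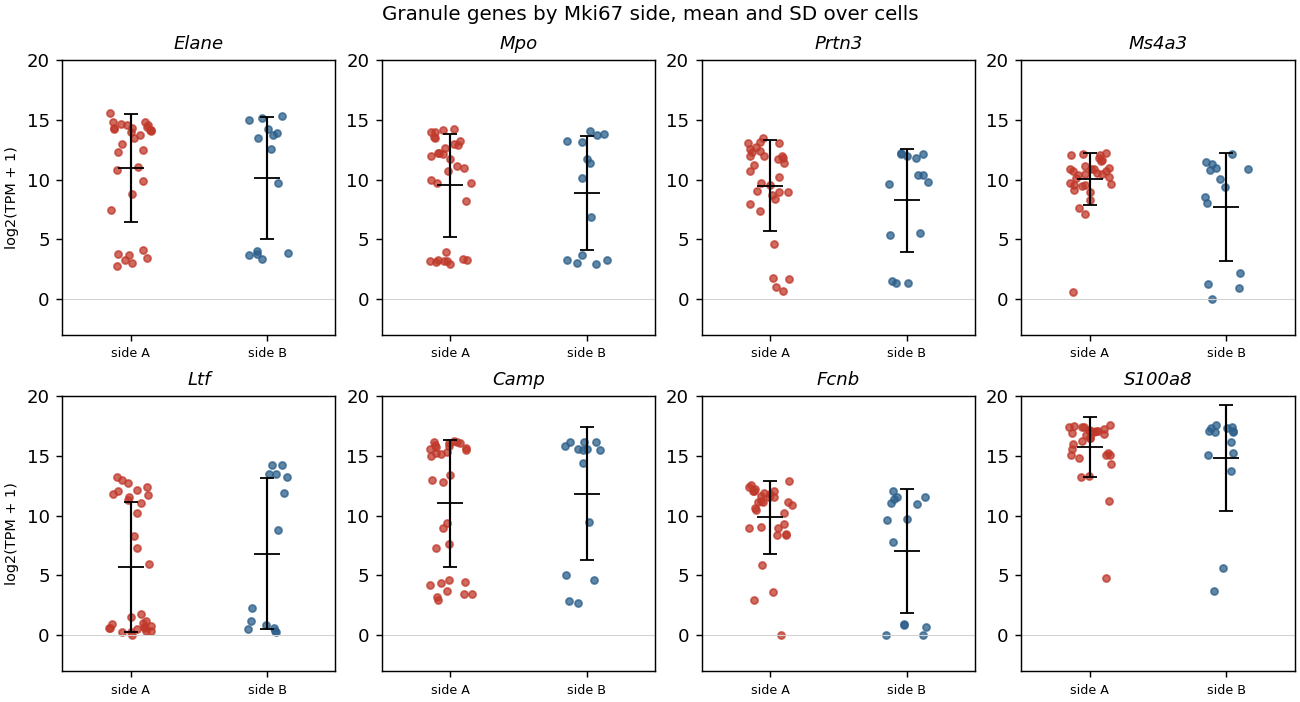
Log2(TPM + 1) of 8 granule and neutrophil genes in each CD11b+ GMP-P cell, with Mki67-positive cells as side A (31 points) and Mki67-negative cells as side B (14 points). Horizontal marks are means and bars are SDs over cells. Elane ranges from 2.77 to 15.58 in side A and from 3.31 to 15.31 in side B, and Ltf from 0 to 13.22 and from 0.28 to 14.27.

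Cells were then placed in 4 fields by Elane at 1000 TPM and Ltf at 100 TPM. Elane alone was high in 16 positive and 6 negative cells, so that 72.7% were Mki67-positive (95% interval 49.8% to 89.3%). Both genes were high in 5 positive and 2 negative cells, or 71.4% positive (29% to 96.3%). Ltf alone was high in 9 positive and 5 negative cells, or 64.3% positive (35.1% to 87.2%). Neither was high in 1 positive and 1 negative cell. These are cells of 1 sample, the intervals cover counting error only, and the difference in the Mki67-positive share between fields was not tested. Read over Elane only, 21 of 29 cells at or above 1000 TPM were positive (72.4%, 52.8% to 87.3%) and 10 of 16 cells below it (62.5%, 35.4% to 84.8%). At 1000 TPM of Elane or more, the G2 and M phase list had 21 of 52 members higher in positive cells by 2 or more and none lower, against 4.15% and 1.92% of the 7228 genes. Below 1000 TPM 35 of 52 were higher and none lower, against 10.4% and 2.3%.

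**Figure D3:**
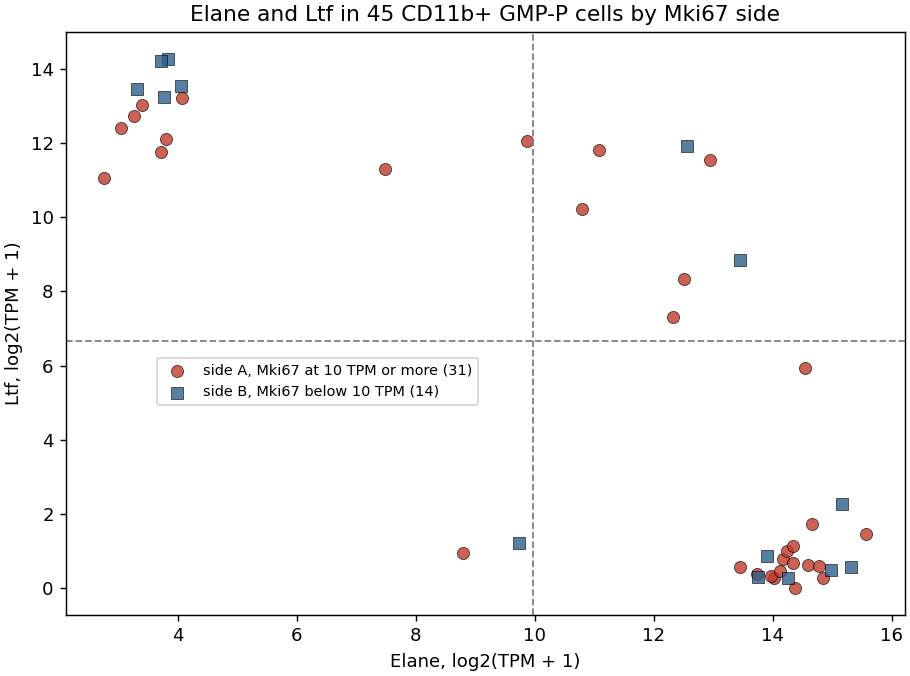
Elane against Ltf, both as log2(TPM + 1), in the 45 CD11b+ GMP-P cells, coloured by Mki67 side, with the limits of 1000 TPM for Elane and 100 TPM for Ltf drawn as lines. Positive and negative cells lie together in the Elane field (16 and 6 cells) and in the Ltf field (9 and 5 cells).

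In the Elane field the negative cells also carried genes of DNA replication. Per cell, 20.2 ± 6.52 of the 35 S phase genes reached 10 TPM in the 16 positive cells (8 to 28), and 20.3 ± 6.22 in the 6 negative cells (12 to 28). The count of G2 and M phase genes was 26.7 ± 8.78 in positive (11 to 39) and 16.8 ± 6.24 in negative cells (12 to 29). Over the 7228 genes, 7.35% were higher by 2 or more in the positive cells of this field and 2.96% lower by 2 or more. Of the G2 and M phase list 22 of 52 were higher by that much, with a median of 1.61. Of the S phase list 3 were higher and 4 lower, with a median of -0.29. The Elane and Ltf fields were compared after the values of the cells had been seen.

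The 4 lower S phase genes were Cdc6, Rpa2, Mcm3 and Mcm7, which act in loading and opening the replication origin or in covering single-stranded DNA. The 3 higher were Slbp, Tipin and Tyms. Mcm2, Mcm4 and Mcm6, subunits of the same helicase as Mcm3 and Mcm7, were not lower by 2 or more. Of the 35 S phase genes 14 had differences above 0, beside 4467 of all 7228 counted genes. Cdc6 levels in the 6 negative cells were 7.43, 8.25, 8.95, 7.06, 2.29 and 6.83. In the 16 positive cells Cdc6 had a median of 0.09 and a highest value of 6.06, so 5 negative cells lay above every positive cell, and the difference was -5.22. The number of all genes with such a separation was not counted. Mcm3, a subunit of the helicase, was 7.94 ± 1.87 in negative and 5.74 ± 2.52 in positive cells. Myc, a growth regulator, was 7.02 ± 2.67 in negative and 3.81 ± 3.58 in positive cells, a difference of -3.21, with overlapping ranges. Of 16 counted regulators of G1 and S entry, 1 was higher and 2, Myc among them, were lower by 2 or more. The shares over all counted genes of this field were 7.35% and 2.96%. That list had a median of 0.28, with 9 members above 0. The kinase Cdk1 differed by -1.03 in this field, although over all 45 cells it was higher in positive cells, by 2.40. Kif11 stayed at 0.82 or less in all 6 negative cells and had a median of 6.72 in the positive ones.

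Elane itself was alike on both sides of this field, at 14.36 ± 0.49 in positive and 14.56 ± 0.67 in negative cells. Mpo was 12.82 ± 1.17 and 13.02 ± 1.46. No primary granule gene differed by 2 in this field, and the list's median was 0.21. On the secondary granule list 2 genes were lower in positive cells by 2 or more. These were Camp, the cathelicidin, at 6.67 ± 3.78 against 8.79 ± 5.67, and Ltb4r1, the leukotriene B4 receptor, at 3.33 ± 2.93 against 6.61 ± 3.45. Both had overlapping ranges. Camp levels of the negative cells were 15.46, 9.44, 15.59, 2.68, 4.58 and 5.0, so 2 of the 6 were as high as cells of the Ltf field.

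In the Ltf field the negative cells had fewer cycle genes at 10 TPM than those of the Elane field, and also fewer genes detected, 2435 to 3401 against 3889 to 4985. Their 50 highest genes took 71.4% ± 5.63 of TPM, against 37% ± 9.04 in the Elane field. The part of these differences in the counts was not tested. The 5 cells (50, 62, 88, 89 and 95) had 2, 1, 18, 3 and 0 of the 54 G2 and M phase genes at 10 TPM or more, and 5, 0, 9, 2 and 0 of the 35 S phase genes. The 9 positive cells had 12 to 41 and 7 to 16. The count of 41 was in cell 90, whose Elane level of 9.87 lay just under the limit of 1000 TPM. Among the negative cells, cell 88, with Top2a at 6.42 and Ube2c at 7.17, stood apart, and the other 4 had almost none of the cycle genes. Its Mki67 level was 1.23, the highest of the 5.

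Stmn1 showed this by cell, with 0.56, 0.93, 9.08, 1.18 and 1.18 in the negative cells and 9.25 to 11.96 in the positive cells. Rrm2 was 0, 0.26, 10.30, 0 and 0 in the negative cells and 7.99 to 10.44 in the positive cells. Tubb5 was 6.77, 1.11, 11.82, 1.45 and 1.28, and 10.12 to 12.65 in the positive cells. In each gene cell 88 lay near or within the positive range, and the other 4 lay below all 9 positive cells. The number of all genes that separated these cells in the same way was not counted. Over the 7228 genes 11.9% were higher by 2 or more in the positive cells of this field and 3.04% lower. Of the counted lists, 32 of 52 G2 and M phase genes, 12 of 35 S phase genes and 15 of 16 histone and tubulin-related genes were higher by 2 or more, with medians of 2.37, 1.32 and 4.53. None of these 3 lists had a member lower by 2. Fewer genes were detected in the negative than in the positive cells of this field, 2750 ± 418 against 3352 ± 579, and its part in these counts was not tested. Whether the fields differ in the Mki67 comparison was not tested either.

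**Figure D4:**
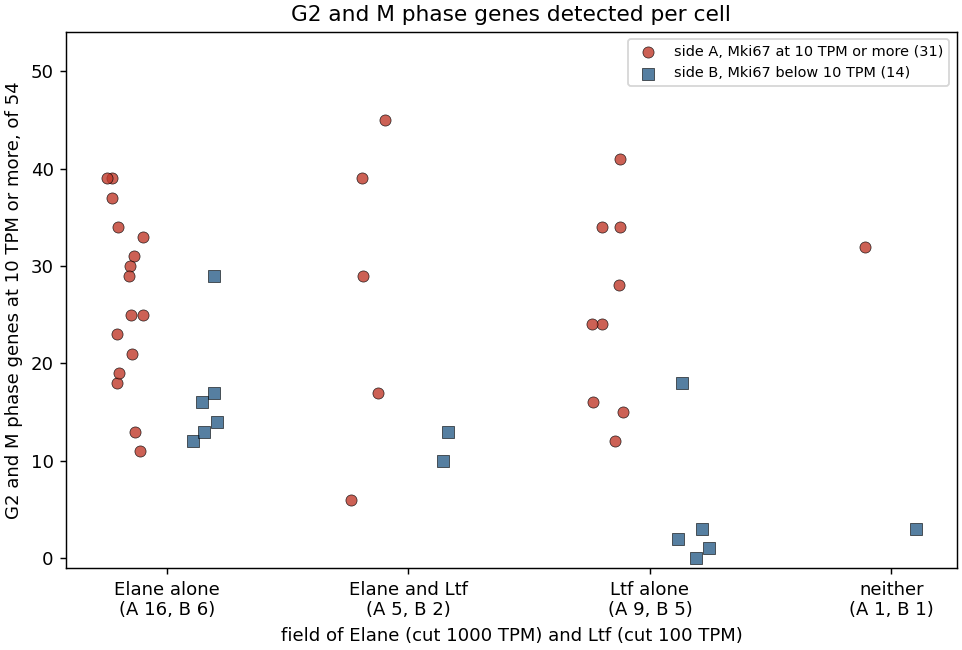
Number of G2 and M phase genes (of 54) at 10 TPM or more in each cell, by Mki67 side. Side A cells range from 6 to 45 and side B cells from 0 to 29, and 4 side B cells of the Ltf field lie at 3 or fewer.

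Ltf was higher in the negative cells of its field. The levels were 14.27, 14.21, 13.23, 13.46 and 13.53 in the 5 negative cells and 11.05 to 13.22, with a median of 12.11, in the 9 positive cells. The nearest cells of the 2 sides were 13.22 and 13.23, and the difference was -1.56, under the call size of 2. How many of all genes likewise had no overlap between these few cells was not counted. Cells of this field were chosen for Ltf at 100 TPM or more, which is far below all of these Ltf levels. The 50 highest genes took 64.6% of TPM in positive and 71.4% in negative cells of the field, and the part of this in the Ltf difference was not tested. Camp was 15.66 ± 0.35 in positive and 15.84 ± 0.33 in negative cells of the field, and Ngp was 16.08 ± 0.32 and 16.65 ± 0.34. The field's secondary granule list had 1 member higher by 2 or more, Fcnb, and 1 lower, Itgam, beside 11.9% and 3.04% of all counted genes. Its median was -0.54, with 4 of 17 counted members above 0, beside 0.32 and 4652 of 7228 for all counted genes.

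Tertiary granule and late neutrophil genes were mixed. Mmp9, the gelatinase of tertiary granules, was 8.77, 10.65, 0, 0 and 9.06 in the 5 negative cells, and in 8 of the 9 positive cells it was at most 1.77, with 8.05 in cell 84. Cell 84 also had the lowest Mki67 level of the 9 (5.79) and a Top2a level of 0.70. On the secondary granule list, the collagenase Mmp8 was 11.90 ± 0.50 in negative and 9.91 ± 2.12 in positive cells. Itgam, on the same list, was 6.82 ± 1.42 in negative and 4.33 ± 1.84 in positive cells. Cebpe, a transcription factor needed for secondary granules, was 7.28 ± 2.16 in negative and 5.28 ± 2.28 in positive cells. Of 22 counted transcription factors of the granulocyte and monocyte choice, 5 were higher in positive cells by 2 or more. Another 2, Cebpe among them, were lower by that much. The shares over all counted genes of this field were 11.9% and 3.04%. That list had a median of 0.87, with 15 members above 0. Of the 17 counted tertiary and late genes, 3 were lower in the positive cells by 2 or more (Mmp9, Csf3r and Fpr2), beside 3.04% of all counted genes in this field. The 2 higher by that much were Trem1 and Trem3, beside 11.9% of all counted genes, which is near their share of the list.

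Ms4a3 and Fcnb were higher in positive cells of the same field. Each was the 1 member of its list higher by 2 or more, among 13 counted primary and 17 counted secondary granule genes. Neither list exceeded the 11.9% of all counted genes that were higher by that much in this field. Ms4a3 was 8.16 ± 3.12 in positive and 2.57 ± 3.44 in negative cells, and Fcnb was 10.89 ± 1.29 and 6.41 ± 5.14. Fcnb levels in the negative cells were 9.66, 0.93, 11.01, 9.76 and 0.70, so 2 of the 5 had almost none, and these were cells 62 and 95. Those cells also held the highest Csf3r levels of the field, 8.40 and 8.12. Csf3r encodes the receptor of granulocyte colony-stimulating factor. Cell 95 further held Retnlg at 12.92 and Cxcr2 at 10.08, both genes of mature neutrophils, and was the highest cell of the field for each. Cells 62 and 95 were singled out after their values were seen.

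**Figure D5:**
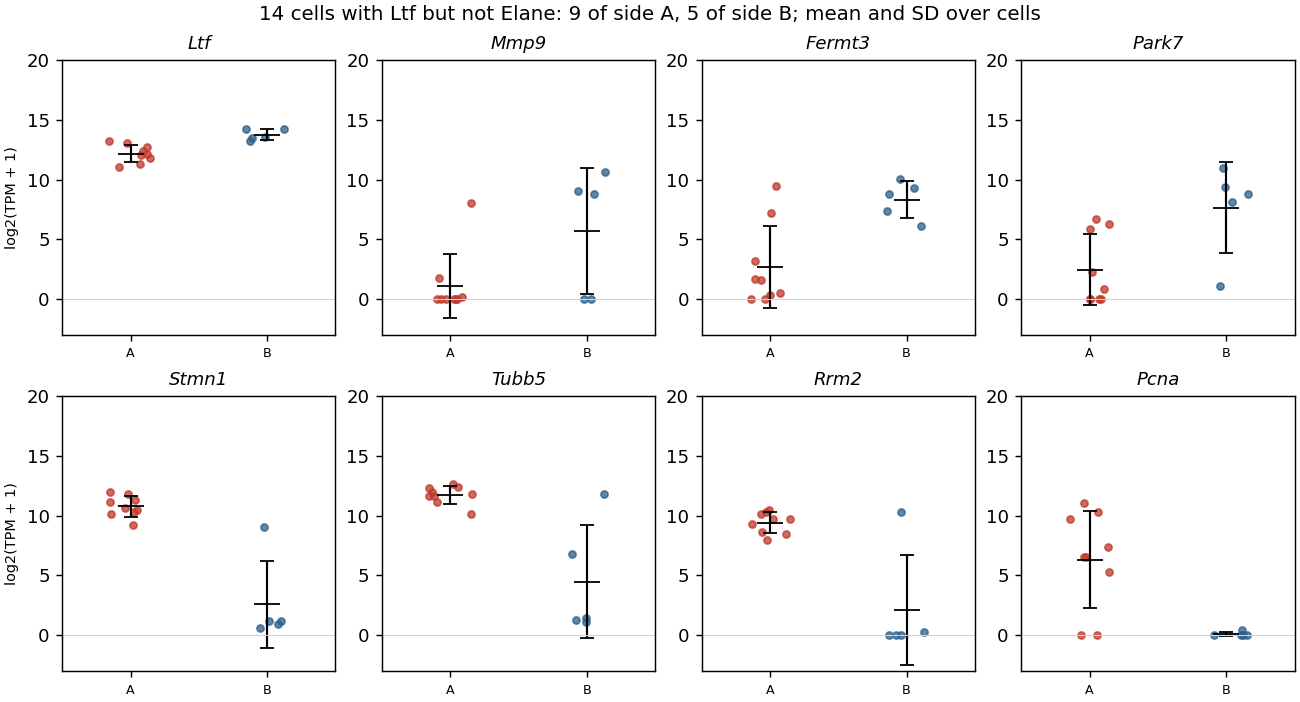
Log2(TPM + 1) of 8 genes in cells of the Ltf field by Mki67 side (side A 9 cells, side B 5 cells), with means and SDs over cells. Ltf lies between 11.05 and 13.22 in side A and between 13.23 and 14.27 in side B.

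Neither gene altered in the mice, Gfi1 or Irf8, separated the sides. Gfi1, a repressor that promotes granulocyte development, reached 10 TPM in 16 of 31 positive and 7 of 14 negative cells, with means of 4.0 ± 3.26 and 3.48 ± 3.66. These values count transcripts of the locus and do not tell the R412X allele apart. Irf8, which promotes the monocyte lineage, reached 10 TPM in 13 of 31 and 5 of 14 cells, with means of 3.70 ± 4.17 and 3.01 ± 4.02. The direction of Irf8 differed between fields, at 2.23 in the Elane field and -2.19 in the Ltf field, with ranges that overlapped in both. Of 22 counted transcription factors of the granulocyte and monocyte choice none passed 2 over all 45 cells, and their median was 0.58. Cebpa was detected in few cells and differed by -1.0.

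Markers of most other lineages were sparse on both sides. Of 16 erythroid and megakaryocyte genes 12 were at 0 in all 45 cells, and of 16 lymphoid genes 14 were. Of 12 macrophage genes 8 were at 0 in all cells, and the summed level reached at most 619 TPM in positive and 479 TPM in negative cells. Monocyte genes were present on both sides, with summed levels of 126 to 28250 TPM (median 6042) in positive and 523 to 18746 TPM (median 3695) in negative cells. The 13 counted monocyte genes had a median difference of 0.63. Emb, a cell adhesion protein, was the 1 member past 2, at 2.36, beside 3.87% of all counted genes. Of 12 counted stress genes 2 were higher by 2 or more, beside the same 3.87%, and the median of the list was 0.74. The 2 higher genes were the chaperones Hsp90aa1, at 2.52, and Dnajb1, at 2.07.

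Genes higher in Mki67-negative cells by 2 or more were fewer, 24 in all, and Cdc6 was the 1 list member among them. For genes detected in 50% or more of the cells, the 12 lowest differences ran from Mrgpra2a, a receptor of the Mas-related family, at -3.13 to Pigs, at -2.09. Mrgpra2a reached 10 TPM in 5 of 31 positive and 7 of 14 negative cells. Skap2, an adaptor in integrin signalling, was 4.74 ± 3.32 in positive and 7.31 ± 3.27 in negative cells, and was lower in the positive cells of both the Elane and the Ltf field, with differences of -2.26 and -3.0. Fermt3 (kindlin-3), which activates integrins, reached 10 TPM in 20 of 31 and 13 of 14 cells and differed by -2.18. Its values were 9.26, 10.02, 6.14, 8.80 and 7.38 in the negative cells of the Ltf field and 2.66 ± 3.43 in the positive cells there, a difference of -5.66. In the Elane field it differed by -0.82, and among cells with both Elane and Ltf high by 0.73. Park7 (DJ-1), a protein of the oxidative stress response, differed by -2.48, again with 13 of 14 negative and 24 of 31 positive cells at 10 TPM or more. Its difference was -5.23 in the Ltf field, -0.84 in the Elane field and -2.60 among cells with both Elane and Ltf high.

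In the 46 GMP cells the same division gave 21 Mki67-positive cells (45.7%, 30.9% to 61%). There the G2 and M phase list had a median of 1.87, with 24 of 53 counted genes higher by 2 or more against 1.58% of 8205 genes, none was lower by 2 or more against 0.232%, and Elane and Ltf differed by 0.78 and 0.03.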

How the data were processed

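The table held values for 23956 genes in 91 single cells. The authors deposited them on a log2 scale, and returned to linear scale less a pseudocount of 1 each cell summed to 999999 TPM or slightly more, which identifies log2(TPM + 1). Per the submitters' processing notes RSEM and mm9 were used. The aligner is not given in the sources used here, nor is the annotation. Libraries (SMARTer, Nextera XT, paired reads of 150 bases, per the labels' protocols) carried no molecular identifiers and no strand mark, so overlapping genes cannot be told apart. TPM keeps no depth, and 82.8% of values in the 45 cells were 0, so a 0 may be a missed transcript. No cell was left out and no doublet caller was run. The highest correlation between 2 cells was 0.694.

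Cells were divided at 10 TPM of Mki67, and means of log2(TPM + 1) were compared, with a difference called from 2 in size, over genes detected in 20% or more of the cells. The members and the 18 gene lists were chosen with earlier results of these data known. Genes named were Mki67, Top2a, Ube2c, Elane, Ltf, the gate genes, the 12 largest differences each way among genes above 0 in 50% of the cells, and up to 8 (cell cycle and granule lists) or 4 members of each list, with the highest member of lists of other cell types. Nek2, Psrc1, E2f8, the members of the Elane and Ltf fields past 2, and familiar genes of these pathways (among them Mpo, Camp, Ngp, Lcn2, Gfi1, Irf8, Cebpe, Cebpa, Mmp9, Csf3r, Retnlg and Cxcr2) were named after their values were seen. Alternatives were other Mki67 thresholds, sides by Top2a or Ube2c, pseudocounts of 0.1 and 10, a ratio of means, 2 scalings, filters, call sizes, Elane and Ltf limits, and restrictions of the cells. The calculation was run on resampled cells of this group with set changes added, which checks its arithmetic and not the comparison of the sides. Scripts ran on Python 3.11.15 with numpy 2.4.6, pandas 2.3.3, scipy 1.17.1 and matplotlib 3.10.9.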

Additional observations from a re-analysis of the deposited data

How the results depend on the processing

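No paired analysis was possible because the labels give GMP and CD11b+ GMP-P cells no shared numbers and the sides are cells of 1 sample. In 22 settings (19 planned and 3 added after seeing the data), the median difference of the G2 and M phase list stayed above 0, between 1.12 and 3.34, and that of histone and tubulin-related genes between 1.23 and 4.53. The medians of the S phase (-0.50 to 1.32), primary granule (-1.62 to 1.58), secondary granule (-0.64 to 0.91) and tertiary granule lists (-0.02 to 0.70) took both signs.

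Genes higher and lower in Mki67-positive cells (280 and 24) numbered 434 and 55 at a Mki67 threshold of 1 TPM, 976 and 84 at a pseudocount of 0.1, 33 and 0 at a pseudocount of 10, 1205 and 350 by the ratio of mean TPM, and 1604 and 266 at a call size of 1. They numbered 750 and 166 below 1000 TPM of Elane, 531 and 214 in the Elane field, and 861 and 220 in the Ltf field. Genes higher numbered 132 at a Mki67 threshold of 100 TPM and 155 with sides by Ube2c. Genes lower numbered 38 and 39 under the 2 other scalings, 14 with a filter of 50%, 342 in the shared range of genes detected and 139 at 1000 TPM of Elane or more. G2 and M phase members higher (29) numbered 15 at 100 TPM, 8 at a pseudocount of 10 and 47 at a call size of 1.

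At 100 TPM of Mki67 the positive share was 31.1% of all cells, 24.1% of Elane-high, 38.1% of Ltf-high and 25% of Ltf-low cells. It was 51.7% of Elane-high cells with sides by Ube2c and 87.5% of Elane-low cells in the shared range. The histone median was 3.85 at a pseudocount of 0.1, 1.32 by the ratio, 1.23 at 1000 TPM of Elane or more, 4.52 below it, 1.33 in the Elane field and 4.53 in the Ltf field. Tipin turned to -0.97 at 100 TPM of Mki67, and Cdk1 to -1.03 in the Elane field. The causes were not tested. TPM without counts limits what can be said of genes at 0.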

Other observations

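Cell 76, the Mki67-negative cell with eosinophil granule genes, had Mki67 and Top2a at 0, Ltf at 1.21, Camp at 2.86 and Elane at 9.74 on the log2(TPM + 1) scale. It lay just under the Elane limit and was placed in neither field. It had 3 of the 54 G2 and M phase genes and 6 of the 35 S phase genes at 10 TPM or more.

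The cells with both Elane and Ltf high numbered 5 Mki67-positive and 2 Mki67-negative. The 2 negative cells had 13 and 10 G2 and M phase genes at 10 TPM or more, 26 and 19 S phase genes, and Rrm2 at 8.86 and 8.13, whereas 4 of the 5 negative cells of the Ltf field had Rrm2 at 0.26 or less.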
